A study of Mus musculus with 8 samples.

Results

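Hepcidin and the genes of iron handling were examined in the liver of ISOGK-treated and vehicle-treated *Apoe*-/- mice. The 10 genes, *Hamp*, *Hamp2*, *Hfe*, *Tfr2*, *Tfrc*, *Slc40a1*, *Fth1*, *Ftl1*, *Trf* and *Bmp6*, were chosen by their symbols from the 16540 genes of the deposited count table. All 10 were found, and all 10 passed the filter on low counts that left 12307 genes to test. ISOGK is isoginkgetin, a natural biflavonoid that the study examined as an inhibitor of ATP-citrate lyase (ACLY). RNA sequencing was done on the livers of 4 male mice given ISOGK at 20 mg/kg/day for 8 weeks and of 4 male mice given vehicle, whose columns in the count table are named DMSO. All 8 mice, the controls included, carried the *Apoe* knockout in every cell and ate a high-cholesterol Western diet, so the comparison gives the effect of the drug in hypercholesterolemic mice only. The age of the mice is not given in the labels, and each library came from a single liver.

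Hepcidin is a small hormone that hepatocytes release into the blood. It binds the iron exporter ferroportin, the product of *Slc40a1*, and causes its loss from the surface of gut cells, macrophages and hepatocytes, so that less iron enters the plasma. The liver senses iron through BMP6, a ligand made mainly by its sinusoidal endothelial cells, which acts through BMP receptors and SMAD proteins on the hepcidin gene of hepatocytes, and through HFE and transferrin receptor 2 (TFR2), which respond to iron-loaded transferrin. Inflammation raises hepcidin by a separate route, through interleukin 6 and STAT3. Mice carry a close copy of the hepcidin gene, *Hamp2*. Inside the cell, the iron regulatory proteins bind hairpins in mRNAs, block the translation of ferritin and ferroportin when iron is scarce, and protect the mRNA of transferrin receptor 1 (*Tfrc*) from decay.

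The libraries held 17457106 to 24461854 counts. *Apoe* had 3252 to 6489 counts in every library, so the knockout cannot be read from the counts and rests on the labels. The hepatocyte markers were abundant in all libraries, with *Alb* at 105235 CPM or more (counts-per-million, scaled by TMM). ISOGK-treated mouse 4 stood apart from the other 7 mice in its acute-phase genes. Its *Saa2* level was 2733 CPM against 33.5 to 142 CPM in the others. On a list of acute-phase and IL6-STAT3 genes, 17 of the 23 had their highest level there, beside 23.3% of all tested genes. The 10 skeletal muscle markers summed to 80.5 CPM in vehicle-treated mouse 4 and to at most 0.584 CPM elsewhere. Results are therefore given with these mice left out where that changes a call.

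*Hamp* and *Hamp2* lie on the minus strand of chromosome 7, at chr7:30942368-30944032 and chr7:30922372-30924681 in GRCm38, with 17686 bases between them. Their annotated mRNAs of 410 and 437 bases were identical at 388 of 410 aligned bases (94.6%), and the longest stretch shared without a mismatch was 87 bases. Reads from such a stretch can be assigned to either copy, and how the authors' counting treated them is not given in the sources used here. The 250 bases before each RefSeq start site are shown for comparison only, and their part in the level of either copy was not tested. They come from RefSeq (GRCm38.p6, minus strand, chr7:30944030-30944279 and chr7:30924182-30924431) and are written 5′ to 3′, with capitals for GGCGCC, known as a BMP-responsive element, and for TTCNNNGAA, the core of a STAT site.
Hamp: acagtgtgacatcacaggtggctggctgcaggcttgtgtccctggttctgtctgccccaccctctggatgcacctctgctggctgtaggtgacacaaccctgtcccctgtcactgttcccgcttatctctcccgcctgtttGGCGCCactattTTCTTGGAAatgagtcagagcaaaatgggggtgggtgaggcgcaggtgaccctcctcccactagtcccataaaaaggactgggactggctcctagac
Hamp2: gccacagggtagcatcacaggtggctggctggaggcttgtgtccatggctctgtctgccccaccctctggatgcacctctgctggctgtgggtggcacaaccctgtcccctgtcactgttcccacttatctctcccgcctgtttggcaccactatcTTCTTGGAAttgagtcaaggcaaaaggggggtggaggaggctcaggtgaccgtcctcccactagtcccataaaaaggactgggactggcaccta
The *Hamp2* window lies inside the longer gene span that GENCODE M21 gives. The upstream windows were identical at 227 of 247 aligned bases (91.9%). Both held TTCTTGGAA, starting 97 bases before the start of *Hamp* and 94 bases before that of *Hamp2*. GGCGCC was found before *Hamp* only, starting at base -109, and the aligned hexamer of *Hamp2* carried the difference G4A (the *Hamp* base, its position counted from the 5′ end of the hexamer, and the *Hamp2* base). Among 27025 genes with such windows, 10.85% held GGCGCC, 8.13% held TTCNNNGAA and 6.86% held CACGTG, the E-box, each of which reads the same on both strands. *Tfrc* also held GGCGCC and *Bmp6* held CACGTG, and neither hepcidin gene held the E-box. These matches describe letters in a window and do not show that a factor binds there.

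The iron-responsive hairpins are shown because they are the shared feature of the uptake, storage and export genes. The search was for an unpaired C, a stem of 5 base pairs (G with T allowed) and the loop CAGTGN, on the mRNA strand of GENCODE M21 transcripts (GRCm38), and the loop is in capitals.
Fth1, in the 5′ UTR (chr19:9982738-9982754, plus strand): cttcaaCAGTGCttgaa
Ftl1, in the 5′ UTR (chr7:45459785-45459801, minus strand): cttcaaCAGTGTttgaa
Slc40a1, in the 5′ UTR (chr1:45925471-45925487, minus strand): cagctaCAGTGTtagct
Tfrc, the most 5′ of its 4 hairpins in the 3′ UTR (chr16:32631225-32631241, plus strand): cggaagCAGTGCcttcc
Tfrc, the most 3′ of its 4 hairpins (chr16:32631716-32631732, plus strand): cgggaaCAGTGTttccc
Such a hairpin was found in the 5′ UTR of 20 of 21901 protein-coding genes (0.091%) and in the 3′ UTR of 116 (0.53%). The ferritin hairpins differed only by C12T, the *Fth1* base first and the position counted from the 5′ end. The heavy and light ferritin genes thus shared this element. In ferritin mRNAs it acts on translation, so the mRNA levels given further on do not report on it.

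Of the 10 genes, 1 rose and 2 fell with ISOGK at an adjusted p under 0.05 (edgeR quasi-likelihood test, Benjamini-Hochberg adjustment over all tested genes). The ferritin light chain gene *Ftl1* rose, and *Hamp2* and *Tfrc* fell. Over all tested genes, 7.55% passed this threshold, 4.11% higher and 3.44% lower, so 3 of 10 genes is a small count above a background of 7.55%. The 10 genes were not drawn at random and were chosen with earlier results of these data known, so the count is a description only. Only *Hamp2* also had an absolute log2 fold change over 1, as did 1.63% of all tested genes (0.999% higher and 0.626% lower). The groups did not overlap for *Ftl1*, *Hfe* and *Hamp2*, and such a separation was found for 15.3% of tested genes (7.92% higher and 7.36% lower). The median log2 fold change of the 10 genes was 0.08, beside 0.00176 over all tested genes. With library size as the only scaling, the median of all genes moved to -0.13, and the share of called genes that were higher was 24.6% in place of 54.5%. All values here are bulk levels, in which fewer cells of a type and less RNA per cell cannot be told apart.

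**Figure D1:**
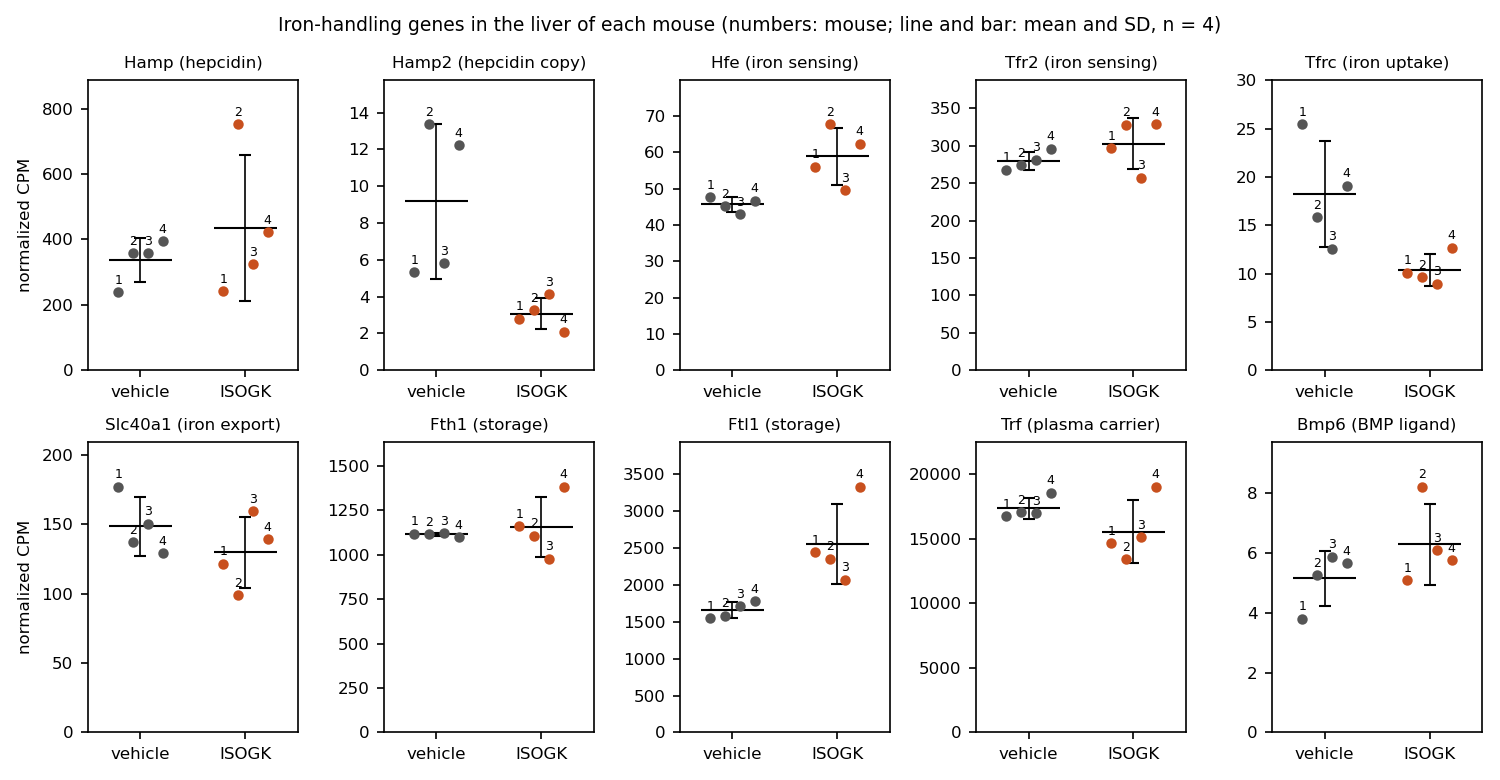
Normalized CPM (vertical axis, from 0) of each iron-handling gene in 4 vehicle-treated mice (grey) and 4 ISOGK-treated mice (orange), with the mouse number beside each point and the mean and SD as a line and bar. The ISOGK-treated mice lie above all vehicle-treated mice for *Ftl1* and *Hfe* and below them for *Hamp2*, and *Hamp* is highest in ISOGK-treated mouse 2 with 752 CPM.

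*Hamp*, which encodes hepcidin, was not detectably changed. Its level was 238, 358, 358 and 395 CPM in vehicle-treated mice 1 to 4 and 242, 752, 323 and 423 CPM in ISOGK-treated mice 1 to 4. The groups overlapped widely, and ISOGK-treated mouse 2 was far above all others. The mean was 337 ± 68.2 CPM (SD, n = 4) with vehicle and 435 ± 224 CPM with ISOGK, a log2 fold change of 0.37 (SE, the standard error of the fit, 0.34; adjusted p = 0.56 in edgeR). The 95% interval of the fold was 0.753 to 2.21, which holds a fall as well as a rise. With ISOGK-treated mouse 2 left out, the log2 fold change was -0.033 (adjusted p = 0.954 in edgeR), so the direction of the mean rests on that mouse.

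*Hamp2* was lower in every ISOGK-treated mouse than in any vehicle-treated mouse. The vehicle-treated mice had 5.32, 13.4, 5.80 and 12.2 CPM, from 106 to 338 counts, and the ISOGK-treated mice 2.80, 3.27, 4.13 and 2.10 CPM, from 40 to 73 counts. The highest ISOGK-treated mouse lay below the lowest vehicle-treated mouse, and the vehicle-treated mice formed a high and a low pair. The log2 fold change was -1.58 (SE 0.34, adjusted p = 0.0249 in edgeR), that is, 0.333 of the vehicle level with a 95% interval of 0.196 to 0.567 (p = 0.0286 in the two-sided exact permutation test, the lowest value 4 mice against 4 can give). The call was lost in 5 of 8 leave-one-out fits (1 mouse omitted from each), those without vehicle-treated mouse 2 or 4 and without ISOGK-treated mouse 1, 2 or 4, in which the adjusted p was at most 0.0674.

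The counts of *Hamp* per count of *Hamp2* in the same mouse do not depend on how libraries are scaled. They were 44.8, 26.8, 61.6 and 32.3 in vehicle-treated mice and 86.7, 230, 78.4 and 202 in ISOGK-treated mice, without overlap. The ratio was 3.39 times higher with ISOGK (log2 difference 1.76, two-sided exact permutation test, p = 0.0286), and the log2 difference lay between 1.5 and 2.02 when each mouse was left out. This comparison was chosen after the values of both genes had been seen. When the counts of the copies were summed, the log2 fold change was 0.34 (adjusted p = 0.592 in edgeR), close to that of *Hamp* alone, which supplied nearly all of the counts.

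**Figure D2:**
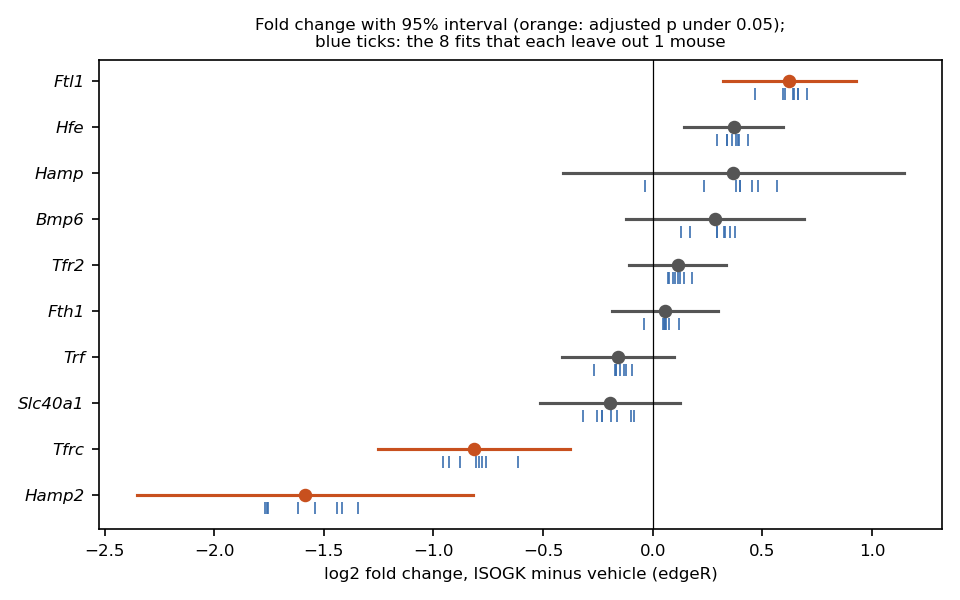
Log2 fold change of each gene, ISOGK minus vehicle, with its 95% interval from edgeR (orange where the adjusted p was under 0.05) and, as blue ticks, the values in the 8 leave-one-out fits. The interval of *Hamp* runs from -0.41 to 1.14 and its ticks reach from -0.03 to 0.57, while the ticks of *Hamp2*, *Tfrc* and *Ftl1* stay on 1 side of zero.

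*Bmp6*, the iron-induced BMP ligand (chr13:38345107-38500302), had 3.81, 5.26, 5.88 and 5.67 CPM in vehicle-treated mice and 5.10, 8.23, 6.11 and 5.76 CPM in ISOGK-treated mice. The groups overlapped, with the highest level in ISOGK-treated mouse 2, the mouse with the most *Hamp*. The log2 fold change was 0.28 (SE 0.19, adjusted p = 0.383 in edgeR; 95% interval of the fold 0.92 to 1.61). It rests on 76 to 156 counts per library, and exons of *Bmp6* overlap those of *Txndc5* on the opposite strand, a gene with 79.7 to 143 CPM, so that part of the *Bmp6* counts could be *Txndc5* reads if strand was not used in counting.

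*Hfe* (chr13:23702034-23710854), whose loss causes hereditary iron overload, had 47.7, 45.2, 43.0 and 46.7 CPM in vehicle-treated mice and 56.1, 67.7, 49.6 and 62.3 CPM in ISOGK-treated mice. Every ISOGK-treated mouse was above every vehicle-treated mouse, and mouse 2 was again the highest. The log2 fold change of 0.37 (SE 0.10) had an edgeR adjusted p of 0.050002, just short of the threshold. It was called by the Wald test of DESeq2 (adjusted p = 0.0211) and not by limma-voom (adjusted p = 0.0598). *Tfr2*, the transferrin receptor that works with HFE in hepatocytes (chr5:137569840-137587481), had 268 to 296 CPM with vehicle and 257 to 329 CPM with ISOGK, and the groups overlapped. Its log2 fold change was 0.11 (adjusted p = 0.536 in edgeR; 95% interval of the fold 0.929 to 1.26), and -0.023 with scaling by library size alone.

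The targets of BMP-SMAD signalling were described next, since *Hamp* is such a target. None of 9 tested target genes passed the test, 0 in either direction, beside 7.55% of all tested genes. Their median log2 fold change was 0.09. Without ISOGK-treated mouse 1, *Atoh8* was called (log2 fold change 0.57, adjusted p = 0.0356 in edgeR). In the fit of all mice, at an adjusted p over 0.05, *Atoh8*, *Id2* and *Bambi* had log2 fold changes of 0.44, 0.36 and 0.43 (adjusted p = 0.13, 0.181 and 0.244 in edgeR). The other targets had log2 fold changes from -0.18 (*Id4*) to 0.37 (*Id3*), with *Id1* at -0.012, *Smad6* at 0.03 and *Smad7* at 0.09. The summed level of the 9 genes was 144, 204, 178 and 188 CPM in vehicle-treated mice and 196, 271, 190 and 230 CPM in ISOGK-treated mice. The sums overlapped between groups (p = 0.114, two-sided exact permutation test), and ISOGK-treated mouse 2 had the highest sum, 160 CPM of it from *Id2* alone. In that mouse 5 of the 9 genes had their highest level, beside 14% of all tested genes. The lowest sum was that of vehicle-treated mouse 1, 79.5 CPM of it from *Id2*. This mouse also had the least *Hamp* and the least *Bmp6*.

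Among 20 tested genes of hepcidin control, 1 fell and 0 rose, or 5%, below the 7.55% of all tested genes. The gene that fell was *Smad5*, a signal transducer of BMP receptors, from 29.6 ± 1.12 to 23.4 ± 0.786 CPM (SD, 4 mice each), with a log2 fold change of -0.34 (SE 0.08, adjusted p = 0.0297 in edgeR). All ISOGK-treated mice were below all vehicle-treated mice, although the call was lost in 7 of 8 leave-one-out fits (adjusted p up to 0.103). *Bmpr2*, a type II BMP receptor, and *Bmp2*, the other endothelial BMP ligand of the liver, had log2 fold changes of -0.37 and 0.35 (adjusted p = 0.078 and 0.109 in edgeR). *Hjv*, the BMP co-receptor hemojuvelin, and *Tmprss6*, the protease that cleaves it, were named after their values were seen, with log2 fold changes of 0.20 and -0.15 (adjusted p = 0.304 and 0.387 in edgeR).

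**Figure D3:**
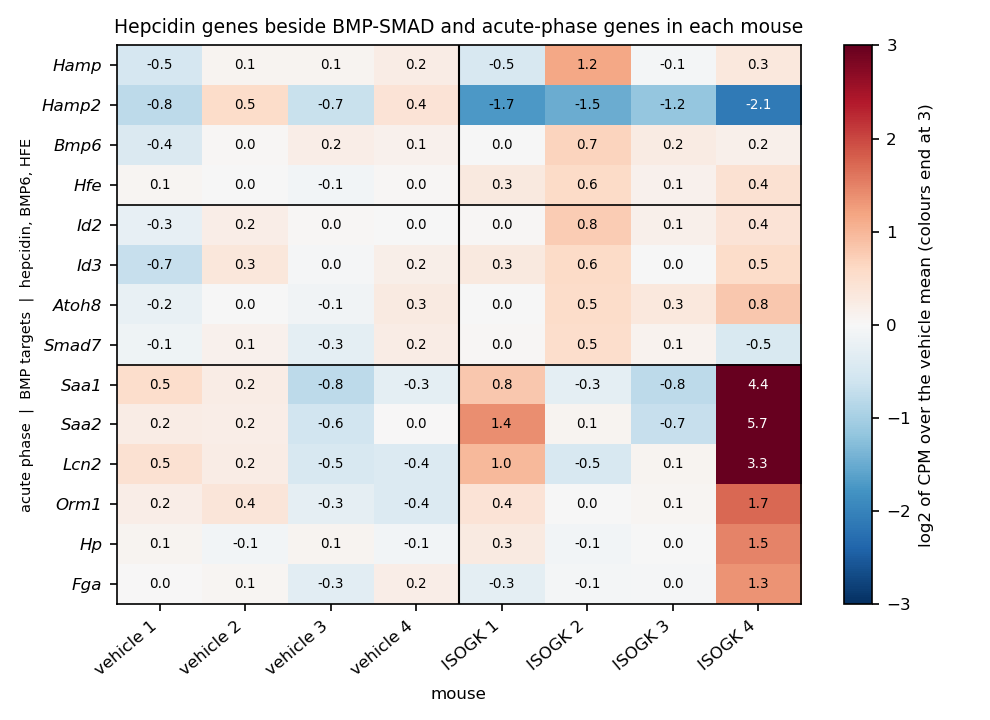
Log2 of the CPM of each gene over its vehicle mean (colour and number, red higher) in each of the 8 mice (columns). The rows are the hepcidin genes with *Bmp6* and *Hfe*, and the BMP-SMAD targets *Id2*, *Id3*, *Atoh8* and *Smad7* only. Below them are the acute-phase genes *Saa1*, *Saa2*, *Lcn2*, *Orm1*, *Hp* and *Fga* only, chosen after their values were seen. *Hamp*, *Bmp6*, *Hfe* and *Id2* are highest in ISOGK-treated mouse 2. The acute-phase genes shown are highest in ISOGK-treated mouse 4, whose *Hamp2* is the lowest of all mice. Of the whole acute-phase and IL6-STAT3 list, 17 of 23 genes were highest in that mouse, and *Saa4*, not shown, was highest in vehicle-treated mouse 1.

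The sum of the acute-phase and IL6-STAT3 genes was highest in ISOGK-treated mouse 4, and *Hamp* was highest in ISOGK-treated mouse 2. In ISOGK-treated mouse 4, *Saa1* reached 1808 CPM, while the other 7 mice had 50.2 to 152 CPM, and *Lcn2*, which encodes a protein that binds bacterial iron carriers, had 506 CPM against 37.8 to 103 CPM. *Hp*, which encodes the hemoglobin scavenger haptoglobin, had 11163 CPM there against 3759 to 4851 CPM elsewhere. *Hamp* had 423 CPM in this mouse, above all vehicle-treated mice by a small margin and below ISOGK-treated mouse 2, in which *Saa1* had 71.1 CPM. These genes were chosen after their values had been seen, and a link between *Hamp* and the acute phase was not tested. Of the 23 acute-phase and IL6-STAT3 genes, 0 were called in edgeR, beside 7.55% of all tested genes. The list median log2 fold change was 0.39, or 0.016 without ISOGK-treated mouse 4. The list had a sum of 23263 to 29568 CPM with vehicle, 25955 to 26767 CPM in ISOGK-treated mice 1 to 3 and 69106 CPM in mouse 4. By the smallest adjusted p the leading genes were *Jak2*, *Saa4* and *Itih3*, with log2 fold changes of -0.58, -1.33 and 0.49 (adjusted p = 0.0735, 0.0788 and 0.094 in edgeR). All of these passed with DESeq2 (adjusted p = 0.0354, 0.0228 and 0.0416), and *Saa4* also with limma-voom (adjusted p = 0.0307), with scaling by library size alone (0.0381) and with edgeR without its robust option (0.0343).

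*Tfrc* encodes transferrin receptor 1, which brings transferrin-bound iron into cells (chr16:32608920-32632794). It had 25.4, 15.8, 12.6 and 19.1 CPM in vehicle-treated mice and 10.1, 9.61, 8.93 and 12.7 CPM in ISOGK-treated mice. The groups met only at their edges, where ISOGK-treated mouse 4 lay just above vehicle-treated mouse 3. *Tfrc* fell by 0.81 on the log2 scale (SE 0.20, adjusted p = 0.0335 in edgeR), to 0.569 of the vehicle level with a 95% interval of 0.419 to 0.771, while the two-sided exact permutation test gave p = 0.0571. The call was kept without vehicle-treated mouse 3 or ISOGK-treated mouse 4 and lost in the other 6 leave-one-out fits (adjusted p of 0.06 to 0.0933), and it was lost with limma-voom (adjusted p = 0.0506). Without vehicle-treated mouse 1, the highest, the log2 fold change was -0.61.

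*Trf*, which encodes transferrin, the carrier of iron in plasma (chr9:103204001-103230444), had 16759, 17039, 16989 and 18562 CPM in vehicle-treated mice and 14631, 13430, 15097 and 19035 CPM in ISOGK-treated mice. ISOGK-treated mice 1 to 3 were below all vehicle-treated mice and mouse 4 was above them, so the groups overlapped. The log2 fold change was -0.16 (SE 0.12, adjusted p = 0.449 in edgeR), and -0.27 without ISOGK-treated mouse 4 (adjusted p = 0.115).

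The ferritin chains form 1 shell in which iron is stored, the heavy chain oxidizing iron and the light chain aiding the growth of the mineral core. *Ftl1* (chr7:45457944-45459884) had 1547, 1582, 1709 and 1782 CPM in vehicle-treated mice and 2441, 2355, 2071 and 3332 CPM in ISOGK-treated mice. All ISOGK-treated mice were above all vehicle-treated mice, and mouse 4 was the highest. *Ftl1* rose by 0.62 on the log2 scale (SE 0.14, adjusted p = 0.02 in edgeR), a fold of 1.54 with a 95% interval of 1.25 to 1.90 (two-sided exact permutation test, p = 0.0286). With ISOGK-treated mouse 4 left out, the rise was 0.47 (adjusted p = 0.0205). The call was lost without vehicle-treated mouse 1 (adjusted p = 0.0624) and without vehicle-treated mouse 2 (adjusted p = 0.0738). The transcribed copy *Ftl1-ps1* was 99.6% identical over 910 aligned bases, but it had only 33 to 58 counts per library beside at least 30830 for *Ftl1*, and summing them left the log2 fold change at 0.62.

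*Fth1* (chr19:9980598-9985098) did not share the group difference of *Ftl1*, although both varied together between mice (Pearson r = 0.922 over 8 mice with group means subtracted, a description of libraries that share their scaling). It had 1119, 1117, 1124 and 1100 CPM in vehicle-treated mice and 1163, 1108, 978 and 1385 CPM in ISOGK-treated mice, with ISOGK-treated mice on both sides of the vehicle range. The log2 fold change was 0.06 (SE 0.11, adjusted p = 0.807 in edgeR; 95% interval of the fold 0.879 to 1.23), and it was -0.042 without ISOGK-treated mouse 4 and -0.084 with scaling by library size alone. Within each mouse, the counts of *Ftl1* per count of *Fth1* were 1.38, 1.42, 1.52 and 1.62 with vehicle and 2.10, 2.12, 2.12 and 2.41 with ISOGK. The groups were far apart beside their spread, and mice 1 to 3 of the ISOGK group were nearly equal. The ratio was 1.47 times higher with ISOGK (log2 difference 0.56, two-sided exact permutation test, p = 0.0286), with a log2 difference of 0.51 to 0.60 when each mouse was left out. The ratio was examined after the values of both genes had been seen.

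*Slc40a1*, which encodes the iron exporter ferroportin (chr1:45908068-45926523), had 177, 137, 151 and 129 CPM in vehicle-treated mice and 122, 98.9, 160 and 139 CPM in ISOGK-treated mice. The groups overlapped, and the lowest level was in ISOGK-treated mouse 2, the mouse with the most *Hamp* mRNA. The log2 fold change was -0.19 (SE 0.15, adjusted p = 0.455 in edgeR; 95% interval of the fold 0.70 to 1.09). Ferroportin is expressed in Kupffer cells as well as in hepatocytes. The 13 Kupffer cell and macrophage markers summed to 1415 to 1783 CPM with vehicle and 1137 to 1485 CPM with ISOGK (two-sided exact permutation test, p = 0.0571). *Cd68*, a lysosomal glycoprotein of macrophages, was the 1 marker of 13 that fell (log2 fold change -0.57, adjusted p = 0.009 in edgeR). That is 7.69%, near the 7.55% of all tested genes. Of the 13 markers, 2 had a positive log2 fold change, and the list median was -0.30. None of these markers was at 0 in all libraries, and the part of macrophage content in the *Slc40a1* level was not tested. The 12 endothelial markers, of the cells that make BMP6, summed to 546 to 616 CPM and 512 to 591 CPM (exact permutation test, p = 0.143). Of 9 hepatocyte markers and 8 stellate cell markers, 0 were called in edgeR. Positive log2 fold changes were found for 8 of 9 hepatocyte, 3 of 12 endothelial and 1 of 8 stellate cell markers.

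The levels of the 10 genes were set against each other per kilobase of annotated transcript. For each gene 1 protein-coding transcript of GENCODE M21 was used, one tagged as principal first and then the longest. The lengths included 1494 bases for *Fth1*, 968 for *Ftl1* and 410 for *Hamp*, and another choice of transcript could change the order. In vehicle-treated mice the order was *Trf* with 6743 ± 321 CPM per kb (SD, n = 4), *Ftl1* with 1710 ± 113, *Hamp* with 823 ± 166, *Fth1* with 746 ± 7.02, *Tfr2* with 91.1 ± 3.92, *Slc40a1* with 44.1 ± 6.25, *Hamp2* with 21.01 ± 9.64, *Hfe* with 12.8 ± 0.571, *Tfrc* with 3.73 ± 1.12 and *Bmp6* with 1.44 ± 0.259. *Hamp* and *Fth1* were within the spread between mice of each other, as were *Hamp2* and *Hfe*. *Tfrc* and *Bmp6* came last, and lay within their spread of each other with ISOGK. In ISOGK-treated mice *Hfe*, with 16.5 ± 2.19 CPM per kb, was above *Hamp2*, with 7.03 ± 1.95, and the rest of the order was the same. The coefficient of variation between vehicle-treated mice was lowest for *Fth1* (0.941%) and highest for *Hamp2* (45.9%), and in the ISOGK group it was highest for *Hamp* (51.4%).

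Other genes of iron and heme handling, together with the acute-phase and IL6-STAT3 genes, were read on 7 lists with 119 tested genes. Of the 119, 3 rose and 4 fell, or 5.88%, which is near the background of 7.55%. Their median log2 fold change was 0.13. The acute-phase and IL6-STAT3 list supplied 23 of the 119 genes and 0 of the calls, which lowers the share called. On the list of iron transport and storage, 1 of 19 genes rose and 2 fell. *Slc39a14*, which encodes ZIP14, the importer of non-transferrin-bound iron in hepatocytes, had 323, 328, 269 and 325 CPM in vehicle-treated mice and 204, 153, 178 and 238 CPM in ISOGK-treated mice. The groups did not overlap, and *Slc39a14* fell by 0.69 on the log2 scale (SE 0.13, adjusted p = 0.0101 in edgeR), a call kept in all 16 alternative fits (adjusted p up to 0.0415).

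*Steap4*, a metalloreductase, fell from 310.0 ± 46.3 to 155 ± 55.9 CPM (SD, 4 mice each), a difference of -0.9996 in log2 (SE 0.26, adjusted p = 0.0474 in edgeR), and lost its call in 6 of 8 leave-one-out fits. *Ltf*, which encodes the iron-binding protein lactoferrin of secretions and neutrophils, had 0.1, 0.396, 0.506 and 0.268 CPM in vehicle-treated mice and 3.19, 4.17, 2.43 and 0.262 CPM in ISOGK-treated mice. In 3 of the 4 ISOGK-treated mice it was above all vehicle-treated mice, with as few as 2 counts in a library (log2 fold change 2.92, SE 0.71, adjusted p = 0.0383 in edgeR). ISOGK-treated mouse 4 was at the vehicle level. The call was lost in 7 of 8 leave-one-out fits.

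On the list of iron regulatory proteins, 1 of 7 genes fell and 0 rose, beside 3.44% lower over all tested genes. *Epas1*, which encodes HIF-2 alpha, fell from 211 ± 11.7 to 157 ± 23.1 CPM (log2 fold change -0.42, adjusted p = 0.0433 in edgeR), a call lost in 6 of 8 leave-one-out fits. *Aco1*, which encodes iron regulatory protein 1, had 162 to 177 CPM with vehicle and 123 to 142 CPM with ISOGK, without overlap, and a log2 fold change of -0.29 that did not pass the test (adjusted p = 0.0628 in edgeR).

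Of 21 genes of heme synthesis, scavenging and breakdown, 1 rose and 0 fell, or 4.76%, below the 7.55% of all tested genes. *Slc48a1*, which encodes the heme transporter HRG1 of macrophage lysosomes, rose from 33.2 ± 0.632 to 43.6 ± 4.36 CPM (log2 fold change 0.39, adjusted p = 0.025 in edgeR), without overlap between the groups. That call was lost with library size alone (log2 fold change 0.26, adjusted p = 0.118) and in 6 of 8 leave-one-out fits. *Fech*, the last enzyme of heme synthesis, and *Cpox*, an earlier one, had log2 fold changes of -0.25 and 0.36 (adjusted p = 0.113 and 0.122 in edgeR). Of 21 genes of iron-sulfur cluster assembly, 1 rose and 0 fell, again 4.76%. *Isca2*, a mitochondrial assembly factor, rose from 9.22 ± 0.48 to 12.9 ± 1.89 CPM (log2 fold change 0.48, adjusted p = 0.0418 in edgeR), a call lost in 7 of 8 leave-one-out fits. *Nubp1* and *Fdxr* had log2 fold changes of 0.43 and -0.48 (adjusted p = 0.0733 and 0.094 in edgeR).

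**Figure D4:**
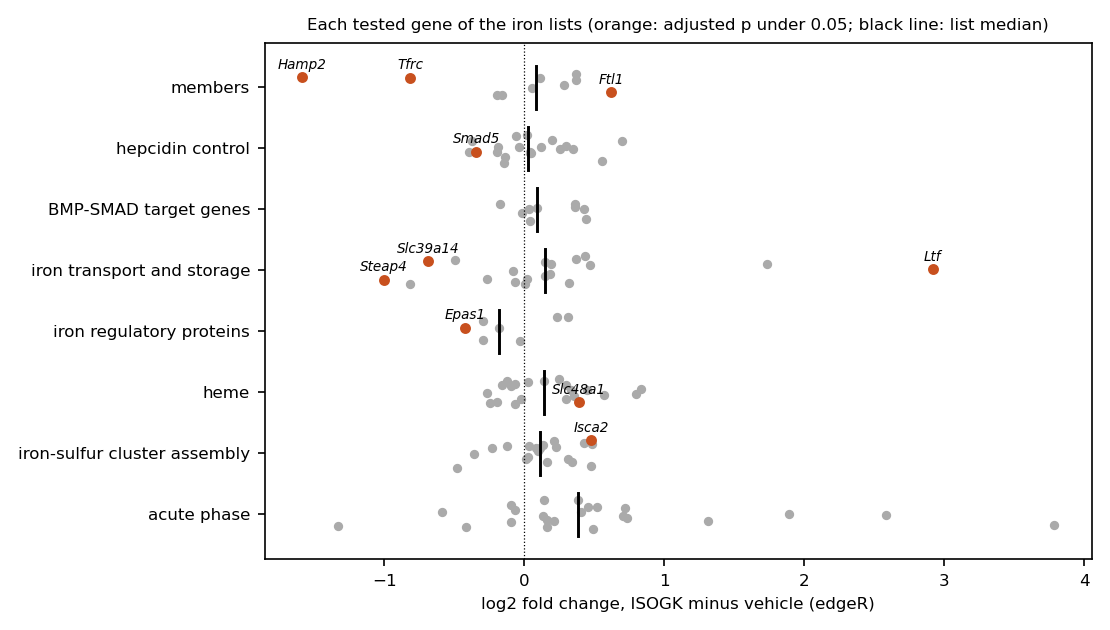
Log2 fold change (horizontal axis) of every tested gene on the 7 lists and of the 10 iron-handling genes, with genes at an adjusted p under 0.05 in orange and named, and the median of each list as a black line. Called genes are few on every list, and *Hamp2*, *Steap4* and *Tfrc* are the called genes farthest below zero.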

How the data were processed

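RNA of 8 livers was sequenced, 4 per group, and libraries were grouped by their deposited labels; columns named DMSO were taken as vehicle, with the number in the title. The authors aligned single-end Illumina reads with HISAT2 2.0.5 and made raw counts per gene with StringTie 1.3.3b; the submitters' processing notes name mm10 as the build. The deposited values are whole-number counts without normalization. The annotation release, the use of strand and the handling of reads that map to several places are not given in the sources used here.

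Genes were filtered with filterByExpr (minimum count 10, minimum total 15), counts were scaled by TMM, and groups were compared in R 4.3.3 with edgeR 4.0.16 (robust quasi-likelihood fit), with Benjamini-Hochberg adjustment over 12307 genes and a threshold of 0.05. The standard error is the log2 fold change divided by the root of the F statistic. Exact permutation tests used log2 CPM with a prior count of 2 (the logarithm of the sum plus 1 for lists). Alternatives were DESeq2 1.42.0, limma-voom (limma 3.58.1), other scalings and filters, the replicate number as a block and each mouse left out; the edgeR, DESeq2 and limma-voom fits were tested on simulated data. Whether the mice were housed or treated apart is not stated, and no pair of libraries agreed within sampling noise.

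The members and the 7 lists, compiled by hand, were chosen with earlier results of these data known. The rule for named genes took all members, *Apoe*, every called gene of a list, filled up to 3 by the smallest adjusted p, and the 3 genes most correlated with *Hamp*, *Tfrc* and *Bmp6*; genes chosen after their values were seen are marked. A gene that this rule takes is not reported here. Of 10 members, 8 had a RefSeq promoter entry. Precision from counts covers counting error only.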

Additional observations from a re-analysis of the deposited data

Results flagged for a closer look

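In each group of 4 mice, a value was singled out when its gap to the nearest mouse was too large for the range of the group by Dixon's test. Of 94 groups of values examined, 12 passed, while chance gives about 1 in 20, or 4.7.

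Several of these values belong to ISOGK-treated mouse 4. Its acute-phase and IL6-STAT3 genes summed to 69106 CPM, against 25955 to 26767 CPM in the other ISOGK-treated mice. *Itih3* had 2188 CPM against 1348 to 1408 CPM, and *Nubp1* had 22.1 CPM against 15.04 to 15.99 CPM. The ratio of *Ftl1* to *Fth1* counts was 2.41 against 2.10 to 2.12, so this mouse was also the one with the highest share of ferritin light chain mRNA.

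In ISOGK-treated mouse 3 the red cell markers summed to 69.3 CPM against 151 to 153 CPM in the other 3, and *Cpox* had 181 CPM against 157 to 160 CPM. In vehicle-treated mouse 4 the skeletal muscle markers summed to 80.5 CPM against 0 to 0.584 CPM, and *Trf* had 18562 CPM against 16759 to 17039 CPM. In vehicle-treated mouse 3 *Slc39a14* had 269 CPM against 323 to 328 CPM, which makes it the vehicle-treated mouse nearest to the ISOGK group for this iron importer. The same mouse had 12531 CPM in the sum of heme genes against 11389 to 11526 CPM, and 23263 CPM in the sum of acute-phase genes against 28678 to 29568 CPM. *Saa4* had 980 CPM in vehicle-treated mouse 1 against 447 to 498 CPM in vehicle-treated mice 2 to 4.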

How the results depend on the processing

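*Ftl1*, *Hamp2* and *Tfrc* kept their direction in all alternatives. When single mice were left out, the number of the 10 genes called was 0 to 3 (0 without vehicle-treated mouse 2), beside 219 to 712 higher and 160 to 523 lower genes over the whole table, 0 to 8 higher and 1 to 6 lower genes on the lists, and log2 fold changes of -1.77 to -1.34 for *Hamp2*, -0.96 to -0.61 for *Tfrc*, 0.47 to 0.70 for *Ftl1*, 0.30 to 0.44 for *Hfe*, -0.033 to 0.57 for *Hamp* and -0.042 to 0.12 for *Fth1*. The cause was not tested. The Wald test of DESeq2 called 765 higher and 670 lower genes over the table, 6 higher and 8 lower genes on the lists, and *Hfe* (0.37); with at least 10 counts in every library *Hfe* was called as well (0.37). With library size alone, 262 genes were higher and 804 lower, 1 and 11 on the lists, *Tfr2* had a log2 fold change of -0.023 and *Fth1* of -0.084, and the hepatocyte and endothelial marker sums had log2 differences of -0.10 and -0.24. *Tfrc* lost its call with limma-voom (-0.76).

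The replicate numbers do not pair the mice: deviations from the group means correlated at -0.0144 to 0.0849 between same-numbered libraries, and 2 of 8 libraries correlated best with their own number. With the replicate block, 411 genes were higher and 416 lower, and *Hamp2* had a log2 fold change of -1.497 (adjusted p = 0.0561). The block also ended the calls of *Smad5*, *Steap4* and *Isca2* (adjusted p = 0.057, 0.0554 and 0.0669) and added those of *Bmpr2*, *Atoh8*, *Jak2* and *Saa4* (adjusted p = 0.0433, 0.0381, 0.0379 and 0.0223). Among 21 other named genes, 266 of 335 alternative fits left the call as it was and 0 turned the direction. The 40 to 338 counts of *Hamp2* and 76 to 156 of *Bmp6* limit what could be seen in these genes.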

Other observations

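Genes of iron-sulfur cluster assembly were at their highest in ISOGK-treated mouse 4 for 14 of 21 members, while 23.3% of all tested genes had their highest level in this mouse. Summed over the list, this mouse had 927 CPM, ISOGK-treated mice 1 to 3 had 861 to 895 CPM and vehicle-treated mice had 818 to 895 CPM, a small difference in level. The list of heme synthesis, scavenging and breakdown summed to 25727 CPM in the same mouse, against 10865 to 14680 CPM in the other ISOGK-treated mice. Much of this sum came from the plasma scavengers *Hp* (11163 CPM in this mouse) and *Hpx* (7013 ± 3180 CPM with ISOGK, SD, n = 4), which are also acute-phase genes.

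Globin transcripts were higher in 3 of the 4 ISOGK-treated mice. *Hbb-bs*, a beta-globin gene, had 14.5 to 18.1 CPM in vehicle-treated mice and 38.6, 42.4, 10.4 and 38.4 CPM in ISOGK-treated mice 1 to 4, a log2 fold change of 0.97 (adjusted p = 0.175 in edgeR). *Alas2*, which encodes the erythroid enzyme that starts heme synthesis, had 58.3 to 80.4 CPM and 40.1 to 68.0 CPM (log2 fold change -0.32, adjusted p = 0.248 in edgeR). The other 3 tested markers, the globin genes *Hba-a1*, *Hba-a2* and *Hbb-bt*, had log2 fold changes of 0.59, 0.60 and 0.89, and 0 of 5 tested red cell markers were called in edgeR. *Alas2*, *Hbb-bs* and *Hbb-bt* were lowest in ISOGK-treated mouse 3 of all mice. The part of blood in the libraries in the *Tfrc* and ferritin levels was not tested.

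After the mean of each group was subtracted, the tested genes whose log2 CPM over the 8 mice were most like those of *Hamp* were *Ces1d*, *Rufy2* and *Sdc1* (Pearson r = 0.989, 0.983 and 0.968). For *Tfrc* these were *Treh*, *3110040N11Rik* and *Zc3h12c* (r = 0.956, 0.951 and 0.95), and for *Bmp6* they were *Pstk*, *Agtr1a* and *Ap4s1* (r = 0.974, 0.972 and 0.958). With 8 mice and 12307 genes such values are a description of these libraries.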
